A study of Mus musculus with 5 samples.

Results

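Linker histone H1f10, 5 further genes of replication-independent histone variants and 2 nucleosome-binding high mobility group genes were followed across 5 arrays of mouse nucleus accumbens. The 8 genes were chosen by name (H1f10, H1f0, H2az1, H2az2, H3f3a, H3f3b, Hmgb1 and Hmgn1) with the ratios of these arrays already known, so the ratios below are a description and carry no test. Of the 8 genes, 7 had a spot paired with that 1 gene symbol, and H1f0 had none in the annotation used here. They held 16 spots of the 32042 with 1 gene symbol (19087 genes), and 12 of the 16 were above background.

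The arrays compared RNA of the nucleus accumbens, the ventral part of the striatum that takes part in reward learning. Cocaine-treated male C57BL6 mice had received 15 mg/kg on days 2, 3 and 4 of conditioned place preference, a procedure that scores how much time an animal spends where it met the drug. Per the design text they were animals with a low score, and the mice of the comparison group, also male C57BL6, received saline on the same days. No age was given in the labels. Each array held 1 cocaine RNA and 1 saline RNA, with cocaine in Cy5 on 3 arrays (cocaine-in-Cy5 replicates 1 to 3) and in Cy3 on 2 (cocaine-in-Cy3 replicates 1 and 2). The cocaine RNAs of cocaine-in-Cy5 replicates 1 and 2 carry names that differ by a suffix alone and may come from 1 animal. The table holds 1 log2 ratio per spot and array. Ratios of all arrays were taken to run in a common direction between treatments, the likely reading, but which treatment is the numerator is not stated. A positive log2 ratio is therefore called the numerator side and a negative one the denominator side, and no rise or fall with cocaine is stated anywhere.

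Nucleosomes are built mostly from core histones whose genes are active during DNA replication and whose messenger RNAs end in a stem-loop without a poly(A) tail. Histone variants such as H3.3 and H2A.Z are made outside replication from ordinary polyadenylated messages, and they are the chief supply of new histone in neurons, which no longer divide. Linker histones bind where DNA enters and leaves the nucleosome and compact the chromatin fibre, and H1f10 encodes a divergent linker histone, H1X. Hmgn1 binds the nucleosome itself and Hmgb1 bends DNA, and both are known to loosen the binding of linker histones.

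The promoters of 3 members show the unlike sequence upstream of these genes. They are the genes of the linker histone whose ratio lay farthest out, of the replication-independent H3.3 and of H2A.Z. Each is the 250 bases before the transcript start in the RefSeq table of GRCm38.p6, 5′ to 3′ on the gene's strand. They are chr6:87981483-87981732 (minus strand) for H1f10, chr1:180813606-180813855 (minus strand) for H3f3a and chr3:137864237-137864486 (plus strand) for H2az1. Capitals mark the CCAAT box (CCAAT) and the GC box (GGGCGG) on either strand.
H1f10: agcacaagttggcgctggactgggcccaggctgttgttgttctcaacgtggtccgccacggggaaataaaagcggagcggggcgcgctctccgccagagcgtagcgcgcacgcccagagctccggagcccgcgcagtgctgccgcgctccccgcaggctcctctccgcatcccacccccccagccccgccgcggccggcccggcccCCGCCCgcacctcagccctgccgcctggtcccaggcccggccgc
H3f3a: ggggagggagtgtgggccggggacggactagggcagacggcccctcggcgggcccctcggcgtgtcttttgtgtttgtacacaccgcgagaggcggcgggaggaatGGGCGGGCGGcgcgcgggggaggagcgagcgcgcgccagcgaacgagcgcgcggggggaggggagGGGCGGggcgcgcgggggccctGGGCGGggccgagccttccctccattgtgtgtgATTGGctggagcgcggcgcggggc
H2az1: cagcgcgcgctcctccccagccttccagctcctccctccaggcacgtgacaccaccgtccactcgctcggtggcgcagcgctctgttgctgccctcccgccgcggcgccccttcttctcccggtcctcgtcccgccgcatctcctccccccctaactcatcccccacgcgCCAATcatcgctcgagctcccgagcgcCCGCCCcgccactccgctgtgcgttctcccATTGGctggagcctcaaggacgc
All 8 genes were in that table, Hmgb1 with 2 windows. The H1f10 window was 75.2% G or C with 30 CpG dinucleotides, a base composition at percentile 96.1 of 32851 promoters of this length. It held 1 GC box, 44 to 39 bases before the start, and no CCAAT box. The H3f3a window (77.2% G or C, 35 CpG) held 4 GC boxes, of which 2 overlap, and 1 CCAAT box. That of H2az1 (71.2% G or C, 28 CpG) held 2 CCAAT boxes and 1 GC box. H3f3b, which encodes the same H3.3 protein as H3f3a, differed from it upstream: its window was 54.0% G or C and held 4 CCAAT boxes, no GC box and a TATA box (TATAAA) 27 to 22 bases before the start. That window (chr11:116024505-116024754, minus strand) lies inside the annotated H3f3b gene. The difference thus holds for the transcript start in that table, not for the outer end of the gene. A CCAAT box lay in 33.8% of the 32851 promoters on either strand, a GC box in 32.7% and TATAAA in 12.4%. The letters AAACACA of the H1 box, known upstream of replication-dependent linker histone genes, lay in 6.25% of promoters and in the H3f3a window of these 9, but not in those of H1f10 and H1f0. The cyclic AMP response element (TGACGTCA), found in 1.55% of promoters, lay in none of the 9.

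No spot passed the test of treatment on either scale. As deposited, limma called 0 of 43790 features (0.0%; adjusted p under 0.05), with 998 at an unadjusted p under 0.05. The denominator side held 658 features on all 5 arrays (1.5%) and the numerator side 0 (0.0%). Spot brightness, the log2 geometric mean of both signals in scanner counts, was recovered from the ratios, and 4638 gene spots (4027 genes) with a brightness over 7.5 were counted as above background. Their ratios followed a brightness trend of a different shape on each array. With a loess curve of that trend taken out of each array, the trend-removed scale, limma called 0 of these 4638 spots (0.0%), with 346 at an unadjusted p under 0.05. On that scale 95 spots (2.05%) lay on the denominator side on all 5 arrays, 71 (1.53%) lay on the numerator side on all 5, and 754 (16.3%) had opposite signs in the dye orientations. Of 13 medium spiny neuron markers with a spot, 11 were above background; these cells are the main neurons of the striatum. The same held for 6 of 9 astrocyte markers and 5 of 9 oligodendrocyte markers, and for 3 of 8 microglial and 1 of 8 dividing-cell markers (Pcna). It also held for 2 of 8 endothelial markers and for 1 of 6 markers of choroid plexus and ependyma. Over the whole series 4027 of 19087 genes were above background. In whole tissue, fewer cells of a type and less RNA per cell cannot be told apart.

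**Figure D1:**
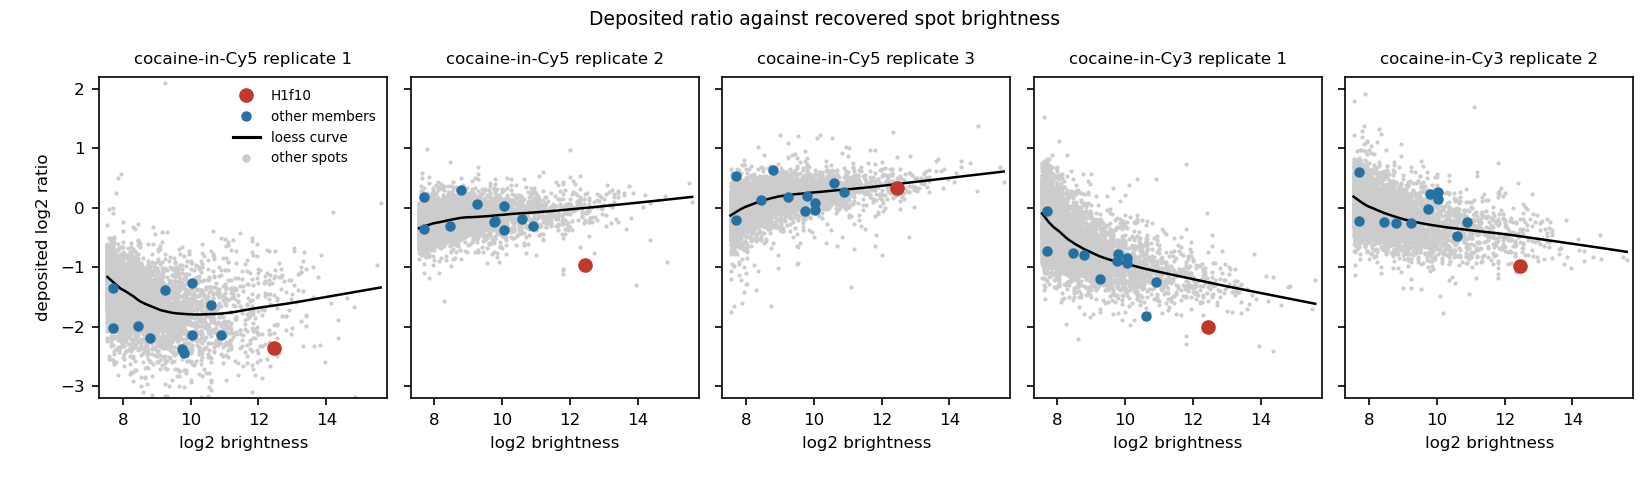
Deposited log2 ratio (y axis) of the 4638 gene spots above background against recovered log2 brightness (x axis), 1 panel per array, with the loess curve in black, the H1f10 spot in red and the other 11 member spots in blue. Relative to the curve the H1f10 spot lies at -0.71, -0.95 and -0.07 with cocaine in Cy5 and at -0.75 and -0.51 with cocaine in Cy3; a few spots outside the axis range are not drawn.

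As deposited, all 12 member spots above background had a fitted ratio on the denominator side, between -1.24 and -0.18 with a median of -0.56. That placed them with the rest of the array, since the median over the 4638 spots was -0.45 and 99.1% of them lay on that side. Cocaine-in-Cy5 replicate 1 gave the most negative value of 11 of the 12 spots. Standard errors were 0.22 to 0.48 for the deposited fits of these spots and 0.10 to 0.19 on the trend-removed scale. On that scale 7 member spots lay on the denominator side and 5 on the numerator side, with a median of -0.05 against 0.00 over all 4638.

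H1f10, the linker histone, had the ratio farthest from 0 among the members. Its spot above background (feature 26039, probe of the expressed sequence tag BU511373, brightness 12.45) had deposited log2 ratios of -2.35, -0.95 and 0.33 with cocaine in Cy5 and -2.01 and -0.98 with cocaine in Cy3. Cocaine-in-Cy5 replicate 3 was thus the only array on the numerator side as deposited. The loess curve at this brightness was at -1.64, -0.0019 and 0.40 with cocaine in Cy5 and at -1.25 and -0.48 with cocaine in Cy3. The trend-removed log2 ratios were accordingly -0.71, -0.95 and -0.07 with cocaine in Cy5 and -0.75 and -0.51 with cocaine in Cy3. All 5 lay on the denominator side, the ranges of the orientations overlapped, and the value of cocaine-in-Cy5 replicate 3 was close to 0. The fitted trend-removed ratio was -0.60 ± 0.13 (SE, 5 arrays), a 1.52-fold difference and the 6th of the 4638 spots counted from the denominator side. The deposited fit gave -1.24 ± 0.44.

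Every array put the trend-removed ratio of H1f10 on the denominator side, so leaving any array out could not change the side of the fit. Such fits show only how far the size of the ratio moved. The reading of the array directions, in contrast, changed the ratio. Leaving out 1 array at a time moved the trend-removed value between -0.73, without cocaine-in-Cy5 replicate 3, and -0.51, without cocaine-in-Cy5 replicate 2. Without cocaine-in-Cy5 replicate 3, limma called 14 of the 4638 spots, and the H1f10 spot was 1 of them. Since the spot was selected on this contrast, nothing is read from that call. If every array were instead Cy5 over Cy3, the treatment ratio of the spot would be 0.25 as deposited and 0.03 with the trend removed. The other H1f10 spot (feature 33, probe of the reference transcript NM_198622, brightness 6.25) was not above background, with deposited log2 ratios of -0.50, -0.46 and -0.42 with cocaine in Cy5 and 0.41 and 0.44 with cocaine in Cy3. That switch of sign with the dye is shared by 98.2% of the 25044 dimmest features, so the ratio of this spot could not be told from background. The value of H1f10 therefore rests on a single probe designed from an expressed sequence tag, and whether that probe reads the H1f10 transcript was not tested. The annotated gene spans chr6:87980421-87981482 in GRCm38.p6.

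**Figure D2:**
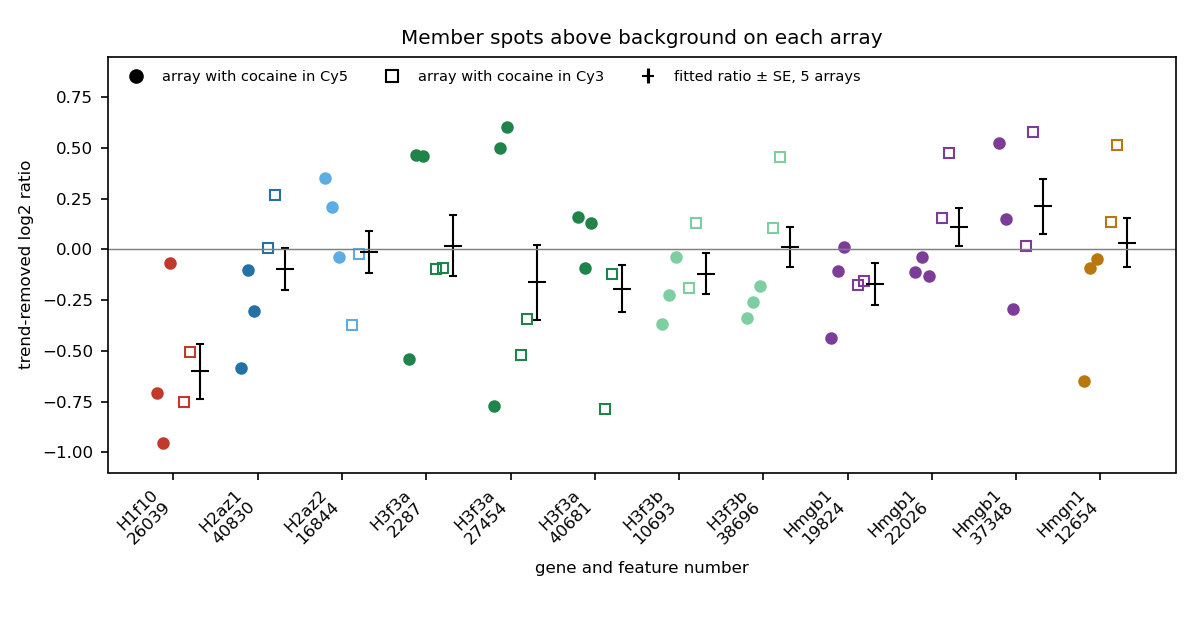
Trend-removed log2 ratio (y axis) of the 12 member spots above background (x axis, gene and feature number), with filled circles for the 3 cocaine-in-Cy5 arrays, open squares for the 2 cocaine-in-Cy3 arrays and a black bar for the fitted ratio ± SE. The spot of H1f10 is the only one with all 5 values below 0; its fitted ratio is -0.60, and the others lie between -0.19 and 0.21.

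The other 11 spots, of 6 genes, had trend-removed ratios between -0.19 and 0.21 with a median of -0.01. All 11 had a 95% interval that stayed within 2-fold of no difference, with bounds from -0.58 to 0.52 on the log2 scale. The interval of the H1f10 spot, from -0.90 to -0.30, also stayed within 2-fold, so this limit does not set H1f10 apart. The members were chosen with these ratios known, so none of these intervals is a test of a difference from 0. The middle of all 4638 spots, between the 5th and 95th percentiles, ran from -0.25 to 0.23.

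The H2A.Z genes lay at the curve. H2az1 (chr3:137864487-137866922) and H2az2 (chr11:6427226-6444511) encode near-identical forms of this H2A variant, which marks promoters and enhancers. The H2az1 spot (feature 40830, brightness 9.75) had deposited log2 ratios of -2.37, -0.23 and -0.06 with cocaine in Cy5 and -0.90 and -0.01 with cocaine in Cy3, and was the only member spot on the denominator side of all 5 arrays as deposited. With the trend removed the values were -0.59, -0.10 and -0.30 against 0.01 and 0.27, which did not overlap between orientations. The fitted treatment ratio was -0.10 ± 0.11. H2az2 (feature 16844, brightness 9.25) had deposited ratios of -1.38, 0.06 and 0.18 with cocaine in Cy5 and -1.19 and -0.25 with cocaine in Cy3. Its trend-removed values were 0.35, 0.21 and -0.04 against -0.37 and -0.02, and the orientations overlapped by a narrow margin, with the higher values where cocaine was in Cy5. The fit gave -0.01 ± 0.10. A second spot of H2az1 (feature 6059) was not above background.

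The 5 spots of the H3.3 genes spread on both sides of the curve, and the spots of H3f3a did so within single arrays. H3f3a (chr1:180802560-180813605) and H3f3b (chr11:116021961-116026039) encode the same H3.3 protein, the H3 form placed into active genes independently of replication. The first H3f3a spot (feature 2287, brightness 8.80) had deposited log2 ratios of -2.18, 0.30 and 0.63 with cocaine in Cy5 and -0.79 and -0.25 with cocaine in Cy3. Its trend-removed ratios were -0.54, 0.46 and 0.46 against -0.09 and -0.09 (fit 0.02 ± 0.15). Feature 27454 (brightness 7.70) moved in step with it, at -0.77, 0.50 and 0.60 against -0.52 and -0.34 (fit -0.16 ± 0.19). Both were low on cocaine-in-Cy5 replicate 1 and high on the other cocaine-in-Cy5 arrays. Their residual spread between arrays was at percentiles 93.1 and 97.6 of all spots. Feature 40681 (brightness 10.60), a probe of the same transcript, did not share that shape: its values were 0.16, -0.09 and 0.13 against -0.79 and -0.12 (fit -0.19 ± 0.12). The H3f3a probes thus disagreed on cocaine-in-Cy5 replicate 1, where they ran from -0.77 to 0.16.

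The residual spread of the H3f3b spots was smaller, at percentiles 38.5 and 27.2. Feature 10693 (brightness 10.90) had deposited log2 ratios of -2.14, -0.31 and 0.27 with cocaine in Cy5 and -1.25 and -0.24 with cocaine in Cy3. Its trend-removed ratios were -0.37, -0.23 and -0.04 against -0.19 and 0.13 (fit -0.12 ± 0.10). Feature 38696 (brightness 10.05) stood at -0.34, -0.26 and -0.18 against 0.11 and 0.46 (fit 0.01 ± 0.10). Feature 38696 was below 0 with cocaine in Cy5 and above 0 with cocaine in Cy3, whereas the orientations overlapped for feature 10693.

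**Figure D3:**
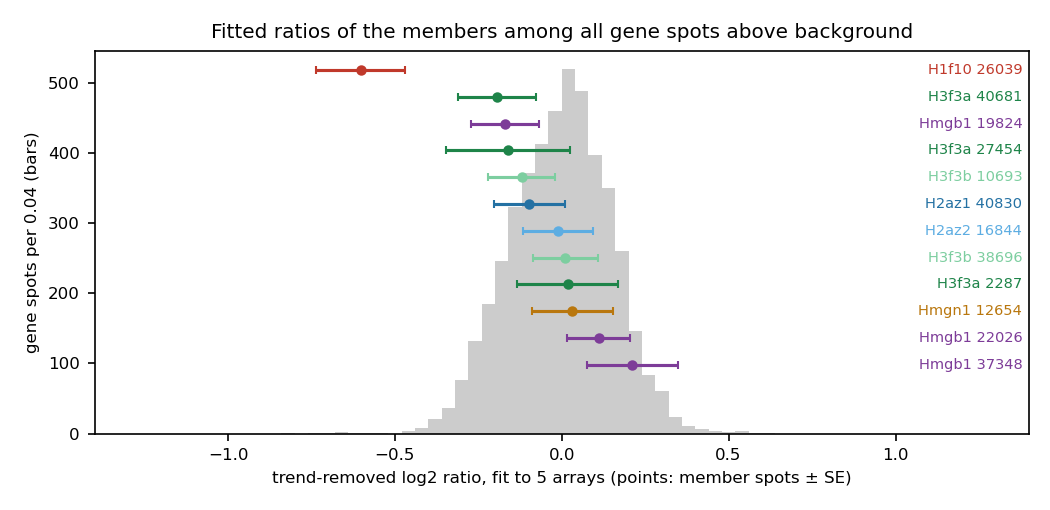
Histogram of the fitted trend-removed log2 ratio (x axis) of the 4638 gene spots above background (bars, spots per 0.04 on the y axis), with the 12 member spots as points ± SE, stacked by value at heights without meaning. The spot of H1f10, at -0.60, lies outside the bulk of the bars, and the other members lie within it, from -0.19 to 0.21.

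The nucleosome-binding proteins showed no common side. Hmgb1 (chr5:149046702-149053057), an abundant DNA-bending protein that also acts as an alarm signal when released from cells, had 3 spots above background. Feature 37348 (brightness 10.05) had deposited log2 ratios of -1.27, 0.03 and -0.03 with cocaine in Cy5 and -0.93 and 0.27 with cocaine in Cy3. Its trend-removed values were 0.52, 0.15 and -0.29 against 0.02 and 0.58, on the numerator side of 4 of 5 arrays (fit 0.21 ± 0.14). Without cocaine-in-Cy3 replicate 1 that fit was 0.35 and without cocaine-in-Cy5 replicate 3 it was 0.32. Feature 19824 (brightness 8.45), on the denominator side of 4 of 5 arrays, stood at -0.44, -0.11 and 0.01 against -0.17 and -0.16 (fit -0.17 ± 0.10). Feature 22026 (brightness 7.70) stood at -0.11, -0.04 and -0.13 against 0.16 and 0.48 (fit 0.11 ± 0.10). The probes of Hmgb1 thus lay on both sides, and the gene has many processed pseudogenes, so which copies each probe reads is uncertain. A further spot (feature 11921) was not above background.

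Hmgn1 (chr16:96121588-96127725), which binds the nucleosome core and opposes linker histones, had 1 spot above background (feature 12654, brightness 9.80). Its deposited log2 ratios were -2.43, -0.22 and 0.20 with cocaine in Cy5 and -0.77 and 0.23 with cocaine in Cy3. The trend-removed values were -0.65, -0.09 and -0.05 against 0.14 and 0.52, again without overlap between orientations. Signs opposite between orientations, as here and for H2az1, were found in 16.3% of all 4638 spots. The treatment fit of Hmgn1 was 0.03 ± 0.12. Its other spot (feature 38153) was not above background. The 4 dim spots of the members together had deposited ratios of -0.75 to -0.36 with cocaine in Cy5 and 0.41 to 0.72 with cocaine in Cy3, which is the background pattern.

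The dye orientation was not used to choose the genes, and its term can be tested. Orientation was coded 1 for cocaine in Cy5 and -1 for cocaine in Cy3, so the gap between the orientations is 2 times the term. None of the 12 member spots passed (limma, adjusted p 0.168 to 0.977), and 0 of all 4638 spots did, with a smallest adjusted p of 0.0726 and 973 spots (21%) at an unadjusted p under 0.05. The term was most negative for Hmgn1 at -0.29, H3f3b feature 38696 at -0.27 and H2az1 at -0.23. For H1f10 it was 0.03.

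Other genes of the same machinery were taken from 6 lists of 113 genes. Of these genes, 95 had a spot, 38 had one above background and 0 passed the limma test, in either direction. Values given for a named gene of these lists are those of its brightest spot, and counts and medians use the mean over a gene's spots above background. Of the 8 other linker histones, all with a spot, 2 were above background: H1f2, a replication-dependent form, at a trend-removed ratio of -0.03 ± 0.13, and H1f8, the oocyte form, at -0.25 ± 0.12. Among other genes listed as variants, 3 of 8 with a spot were above background (H2aj at 0.11 ± 0.18, H2bu2 at 0.02 ± 0.11 and H2al2a at 0.17 ± 0.10). H1f8 and H2al2a, both at brightness 7.55, lay just over the threshold. The deposited ratios of H2al2a were negative with cocaine in Cy5 and positive with cocaine in Cy3, the switch seen in the dimmest features. Among other high mobility group genes 1 of 10 was, Hmgn2, a relative of Hmgn1, at -0.08 ± 0.14.

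The chaperones that carry histones gave 13 of 26 genes above background, 8 of them on the denominator side, with a median of -0.01. Ptms, which encodes parathymosin, a small acidic protein that binds linker histone, stood at -0.28 ± 0.13, and Npm1, the nucleolar chaperone nucleophosmin, at -0.27 ± 0.11. The nucleosome assembly proteins Nap1l4 and Nap1l5 stood at -0.13 ± 0.09 and -0.07 ± 0.10. The mean of the 2 Nap1l4 spots above background lay on the numerator side instead. It was 0.13, 0.19 and -0.13 with cocaine in Cy5 and 0.04 and 0.02 with cocaine in Cy3. Anp32b, a relative of the H2A.Z remover ANP32E, stood at -0.02 ± 0.10, and the elongation factor Supt6 at 0.11 ± 0.11. Complexes that exchange H2A.Z gave 8 of 22 genes above background, 2 of them on the denominator side, with a median of 0.08. The brightest were Morf4l1 at 0.02 ± 0.10, the helicase Ruvbl1 at 0.06 ± 0.09 and Dmap1 at 0.14 ± 0.11. They were followed by Yeats4 at 0.10 ± 0.10, the H2A.Z-loading ATPase Ep400 at 0.20 ± 0.12 and the scaffold Trrap at -0.06 ± 0.09. The mean of the 4 Morf4l1 spots lay on the denominator side. It was -0.10, 0.22 and 0.13 with cocaine in Cy5 and -0.15 and -0.10 with cocaine in Cy3.

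The replication-dependent core histones lay farthest from the members on cocaine-in-Cy5 replicate 1. Of 21 such genes with a spot, 11 were above background, 5 of them on the denominator side, and their median fitted ratio was 0.02. Among these 11, H2ac4 (brightness 7.65) lay close to the threshold, and its deposited ratios switched sign with the dye. The brightest were H2ac20 at 0.16 ± 0.20, H2ac10 at 0.18 ± 0.22, H4c6 at 0.04 ± 0.20, H2aw at 0.09 ± 0.14, H4c4 at 0.02 ± 0.19 and H2bc12 at -0.06 ± 0.09. The mean of the 2 H2ac10 spots lay on the denominator side instead. It was 0.63, -0.16 and -0.42 with cocaine in Cy5 and -0.55 and 0.22 with cocaine in Cy3. On cocaine-in-Cy5 replicate 1 the median trend-removed ratio of the core histone genes was 0.63, with 10 of 11 above 0. The 7 member genes had a median of -0.38 there, with 1 of 7 above 0. Over all 4027 genes above background 2097 were above 0 on that array, with a median of 0.02. The 3 other genes listed as variants were also above 0 there, with a median of 0.58 (H2aj at 0.98, H2bu2 at 0.58 and H2al2a at 0.22). So was the linker histone H1f2 at 0.52, while H1f8 stood at -0.58. Genes listed as variants thus stood on both sides of the curve on that array, most members below 0 and the other 3 above it. H2bu2 is an H2B gene in a list made for H2A and H3 variants, and its class as a variant was not checked. Whether replication dependence has a part was not tested. On that array H4c4 stood at 1.35, H4c6 at 1.26 and H2ac20 at 1.01, and H2ac10 at 1.19 by its brightest spot and 0.63 by the mean of its 2 spots. On the other arrays the core histone medians were -0.14 and -0.02 with cocaine in Cy5 and -0.37 and -0.0045 with cocaine in Cy3, and those of the members were -0.09 and -0.07 with cocaine in Cy5 and -0.04 and 0.27 with cocaine in Cy3. For 8 of the 11 genes cocaine-in-Cy5 replicate 1 was the highest array, against 1044 of all 4027 genes. This contrast is between 1 cocaine RNA and 1 saline RNA on 1 array, so it has no replicate, and these gene copies are near-identical and can share probes. Blood markers, of which 3 of 5 with a spot were above background (all globins), ranged from 0.66 to 0.90 on the same array, against -0.39 to -0.21 on cocaine-in-Cy5 replicate 3. Their part in the pattern was not tested. Dividing cells, the usual source of replication-dependent histone messages, were represented above background by Pcna alone, at -0.08 on that array.

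**Figure D4:**
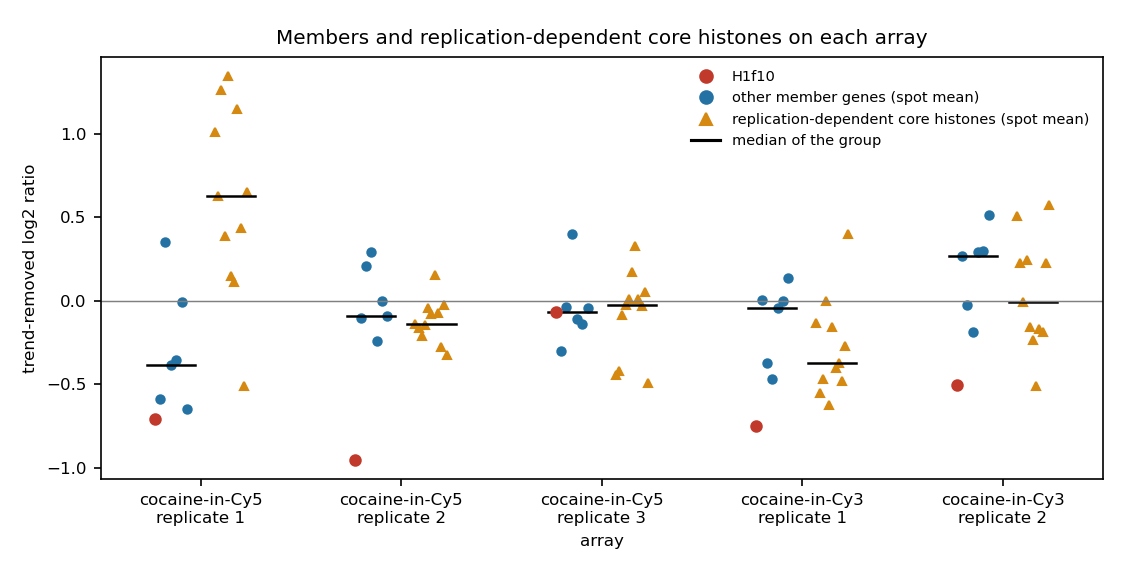
Trend-removed log2 ratio (y axis) on each of the 5 arrays (x axis) for H1f10 (red circles), the 6 other member genes above background (blue circles) and 11 replication-dependent core histone genes (orange triangles), each gene the mean of its spots above background, with black lines for the median of the 7 member genes and of the core histones. On cocaine-in-Cy5 replicate 1 the medians are -0.38 for the members and 0.63 for the core histones, and on the other arrays they lie closer.

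The spots most like that of H1f10 across the 5 arrays were ranked by root mean square difference of trend-removed log2 ratios among 4626 spots of other genes, whose median difference was 0.72. The nearest were Rusc1 at 0.18, Tspyl1 at 0.18, Tfap2e at 0.20, Grn at 0.22 and Tmem165 at 0.23. Grn encodes progranulin, a growth factor of lysosomes and microglia, Tfap2e a transcription factor and Tspyl1 a protein of the nucleosome assembly family. Their fitted trend-removed ratios were -0.67, -0.53, -0.44, -0.68 and -0.46 in the order named. Each had its highest value on cocaine-in-Cy5 replicate 3, from 0.06 for Tfap2e to 0.28 for Tspyl1, and all other values below 0. H1f10 had its highest value on the same array. Because the spots were ranked on these same values, the shared shape and the similar fitted ratios follow from the ranking. The points compared share the 5 arrays with their dyes and RNAs. The spots of Rusc1, Tspyl1, Grn and Tmem165 were among the 14 that limma called without cocaine-in-Cy5 replicate 3. Those calls rest on values that the ranking used, so nothing is read from them.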

How the data were processed

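Each of 5 dye-swapped arrays compared accumbens RNA of 1 mouse given cocaine with that of 1 given saline (3 with cocaine in Cy5, 2 with cocaine in Cy3). Per the labels' protocols, 50 ng of RNA was amplified linearly and labelled. Per the submitters' processing notes, images were read with Agilent Feature Extraction. How background and scale were corrected is not given in the sources used. The values were deposited as log2 ratios per spot, not centred (array medians -0.69, -0.57 and -0.52 with cocaine in Cy5, 0.53 and 0.60 with cocaine in Cy3). The log base was read from 3 columns with 15 digits, whose antilogs to base 2 were fractions of whole numbers for at least 99.9% of spots (relative tolerance 2e-14), and was assumed for the other 2.

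The members and gene lists were chosen with earlier results of these data known. Spots were named through the platform annotation, from 1 gene symbol only. Of 44290 features, 500 at exactly 0 on every array, none of them used, were left out, and 43790 were fitted with limma 3.58.1 in R 4.3.3 (a treatment mean and a dye term, with 3 residual degrees of freedom and Benjamini-Hochberg adjustment). Brightness was recovered with Python 3.11.15 from the common factors that the fractions lack. Ratios like those of background were found in 45.1% of gene spots between 6.5 and 7.5, against 2.44% between 7.5 and 8 and 0% above 8, and the threshold was 7.5. Each array's trend was removed by loess (span 0.3) over spots above it, which sets their typical ratio to 0. If no background was subtracted, ratios of dim spots are too small. Same-numbered arrays are not paired, because numbers follow accession order. Named were all member spots, up to 6 of the brightest genes above background per chromatin list and the 5 spots most like H1f10. The recovery and the fit were tested on simulated data. The number of arrays limits the precision, and whether the arrays come from separate animals is partly unclear.

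The direction was read from dye-linked features. Of 238 strongly unequal features with no gene, 184 switched sign with the orientation and 0 kept 1 sign, as they would if the swapped arrays had been turned before deposit. The reading as Cy5 over Cy3 on every array was an alternative, as were median centring, quantile normalization, array weights, no dye term, averaging the arrays that may share an animal, thresholds of 7 and 8 and each array left out.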

Additional observations from a re-analysis of the deposited data

Results flagged for a closer look

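Trend-removed log2 ratios of 4 of the 12 member spots had opposite signs in the dye orientations, negative on all 3 cocaine-in-Cy5 arrays and positive on both cocaine-in-Cy3 arrays. The background share of opposite signs, in either direction, was 16.3% of the 4638 spots above background. The orientation term was -0.234 for the H2az1 spot (feature 40830), -0.27 for an H3f3b spot (feature 38696), -0.205 for an Hmgb1 spot (feature 22026) and -0.295 for the Hmgn1 spot (feature 12654). In the limma test of the term none passed, with adjusted p values of 0.242, 0.168, 0.251 and 0.207. No array stood far enough from the others in any of the 12 spots to be listed as an outlier (Dixon's critical value for 5 arrays, 0.71).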

How the results depend on the processing

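The count of features that limma called for treatment was 0 as deposited and also with median centring, quantile normalization, array weights, no dye term, the possibly shared animal averaged, the 4638 gene spots above background alone, the trend removed, and each array left out as deposited. It was 34346 (184 to the numerator and 34162 to the denominator side) if every array is read as Cy5 over Cy3, a reading under which the dye offset enters the treatment. With the trend removed, a combination added after seeing the data, leaving out 1 array called from 0 to 14 spots, the 14 (5 and 9) without cocaine-in-Cy5 replicate 3; the cause was not tested. The trend-removed ratio of H1f10 was -0.54 with the possibly shared animal averaged, -0.59 and -0.61 at thresholds of 7 and 8, and -0.61 and -0.60 with brightness 1 SD lower and higher. Under the Cy5 over Cy3 reading it was 0.03. The shift in brightness moved other member spots more. From the lower to the higher brightness, Hmgb1 feature 19824 went from -0.29 to -0.09 and Hmgb1 feature 22026 from 0.07 to 0.22. H3f3a feature 27454 went from -0.20 to -0.04. Spots near 0, such as H3f3a feature 2287 at -0.05 and 0.07, changed side. Moves were counted against the deposited fit, where the change exceeded the spread of a spot's deposited ratios. By that measure the Cy5 over Cy3 reading moved 3 member spots as deposited. With the trend removed it moved 3 as well (H1f10, H2az2 at 0.19 and H3f3a feature 40681 at 0.26), and leaving out 1 array moved Hmgb1 feature 37348. Part of each trend-removed move is thus the trend removal itself. Trend-removed fits to all arrays were -0.60 for H1f10, -0.01 for H2az2, -0.19 for H3f3a feature 40681 and 0.21 for Hmgb1 feature 37348. Hmgb1 feature 22026, not counted as moved, went from 0.11 to -0.21 under that reading. No paired analysis was possible because replicate numbers follow accession order and each array already pairs 2 mice. Brightness limits the 4 dim spots, whose ratios could not be told from background.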
